A study of Mus musculus with 6 samples.

Results

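The enzymes that make and clean the deoxynucleotide pool were followed in mouse liver through 8 genes: Rrm1, Rrm2, Tyms, Tk1, Dut, Dck, Dctd and Dtymk. They were taken as every probe set whose platform gene symbol was 1 of these 8, which gave 20 probe sets, 17 on the 430A and 3 on the 430B design of Affymetrix mouse genome arrays. The arrays held 18193 genes with a probe set of 1 symbol. No measured value entered this choice, but results of these data were known when it was made.

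RNA came from livers of male mice on a hybrid B6SJL background, aged 32 to 37 days, with 1 array for each of 3 genotypes on each design. WT mice were not transgenic. LT and 17kT mice carried ApoErtTA:TRE2-TAg transgenes, through which doxycycline induced either the SV40 large T antigen or 17kT, a short form of it, each together with the small t antigen. Large T binds the retinoblastoma family and p53, whereas 17kT keeps the motif for the retinoblastoma family but not the p53 binding region. For 4 days the water of every group, also of WT, held 25 µg/ml doxycycline and 2.5% sucrose. WT mice lacked ApoErtTA as well as the viral proteins, so these cannot be told apart. The series title calls the expression liver-specific. The labels do not say which liver cells made the proteins, nor whether the RNA on an array came from 1 animal or from several.

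Ribonucleotide reductase turns ribonucleotides into deoxynucleotides, with Rrm1 as its large subunit and Rrm2 as the small subunit of dividing cells. Dctd, Dut and Tyms lead from deoxycytidine and deoxyuridine nucleotides to thymidylate, Tk1 and Dck recover deoxynucleosides, and Dtymk carries thymidylate on towards the triphosphate. Resting hepatocytes make little DNA, and several of these genes are known as targets of E2F factors, which the retinoblastoma family holds in check until cells enter S phase.

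Values are MAS5 signals, scaled within a design, on a linear scale. The floor, below which values were given no order, was the median of all scaled signals of a design, 90.4 on 430A and 140.5 on 430B. A gene was called higher or lower at a difference of at least 2-fold, a log2 ratio of 1, and its value came from the probe set brightest relative to the floor. With 1 array per genotype and design no test was possible, so no p-value is given and no difference has a replicate check. The spread of a log2 ratio over 100 probe sets present on both designs, a technical error, was 0.23 for LT over WT, 0.28 for 17kT over WT and 0.26 for 17kT over LT (SD). Between pairs of probe sets of a gene it was 0.59, 0.56 and 0.48 (SD). In each comparison all 100 shared probe sets were above the floor on at least 1 array of both designs. The first spread may therefore understate that of signals near the floor. Of the 20 probe sets, 15 were above the floor on at least 1 array, 11 on all 3 arrays of their design and 5 on none. The WT arrays were highest in the 3′ to 5′ signal ratio of Gapdh, a measure of RNA integrity and of the length of copies made from it: 5.81 and 6.04 in WT (430A and 430B), 3.08 and 3.16 in LT, and 3.53 and 2.85 in 17kT. The same ratio of Actb did not set WT apart, at 2.57 and 2.29 in WT, 2.52 and 2.50 in LT, and 2.13 and 1.72 in 17kT. LT arrays were run on fluidics station 2 and the other arrays on station 1, so the station's effect and that of LT cannot be told apart. The 17kT arrays were run on modules 3 and 4, and those of WT and LT on modules 1 and 2. The module's effect and that of 17kT cannot be told apart either. The part of RNA integrity in the differences from WT was not tested.

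All 9 hepatocyte markers on 430A were above the floor on every array, with Alb at 28283 in WT, 23851 in LT and 18262 in 17kT. With the marker on 430B, 3 of 10 were called lower than WT in LT and 6 in 17kT, and 0 higher. In whole liver RNA, fewer cells of a type and less RNA per cell cannot be told apart.

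LT was set against WT to ask how liver changes when large T and small t are induced. Rrm1, Rrm2, Tk1, Dut, Dck and Dtymk were higher in LT, with folds from at least 2.09 (Dck) to 7.21 (Rrm1), while Tyms and Dctd were not called. In all, 6 of 8 genes were higher and 0 lower, where 11.1% of 12775 measured genes were higher and 9.01% lower. The median log2 ratio was 1.28 over the 8 genes and 0.02 over all measured genes. By probe set, 9 of the 14 measured were higher and 0 lower, against 9.76% and 8.54% of all measured probe sets. With each gene valued by the mean over its probe sets, 4 of the 8 genes were called. With the floor at the 75th percentile, 5 of the 8 genes were measured and 3 were called (Rrm1, Rrm2 and Tk1). With arrays scaled to the probe sets shared by the designs, 3 were called (Rrm1, Rrm2 and Dut). That scaling also changed which probe set stood for Dtymk, from 1438096_a_at, which kept its call at a log2 ratio of 1.06, to 1452681_at at 0.49.

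The same 6 genes were higher in 17kT than in WT, a comparison that asks this of the form that does not bind p53. Rrm2 had the largest ratio, 14.4-fold, and Rrm1 followed at 8.55-fold. Here 6 of 8 genes were higher and 0 lower, where 9.97% of 12992 measured genes were higher and 8.64% lower, and the medians were 1.58 and 0.07. Of 15 measured probe sets, 10 were higher and 0 lower, against 9.03% and 7.47% of all. The higher floor left 6 genes measured, of which again 3 were called, Rrm1, Rrm2 and Tk1. With arrays scaled to the shared probe sets, or quantile normalized within a design, 4 were called (Rrm1, Rrm2, Tk1 and Dut). Dtymk was then valued by 1452681_at, while 1438096_a_at kept its call. Scaling to a common median left 5, without Dck, and valuing each gene by the mean over its probe sets also left 5. Both comparisons use the same WT arrays and are not independent.

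Rrm2 was the gene of the 8 that differed by 2-fold between the transgenic livers. In 17kT over LT, 1 of 8 genes was higher and 0 were lower, where 4.23% of 12541 measured genes were higher and 4.47% lower. The members' median log2 ratio was 0.27, and that of all genes 0.03. By probe set, 2 of 15 were higher and 0 lower, against 4.57% and 4.00%.

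**Figure D1:**
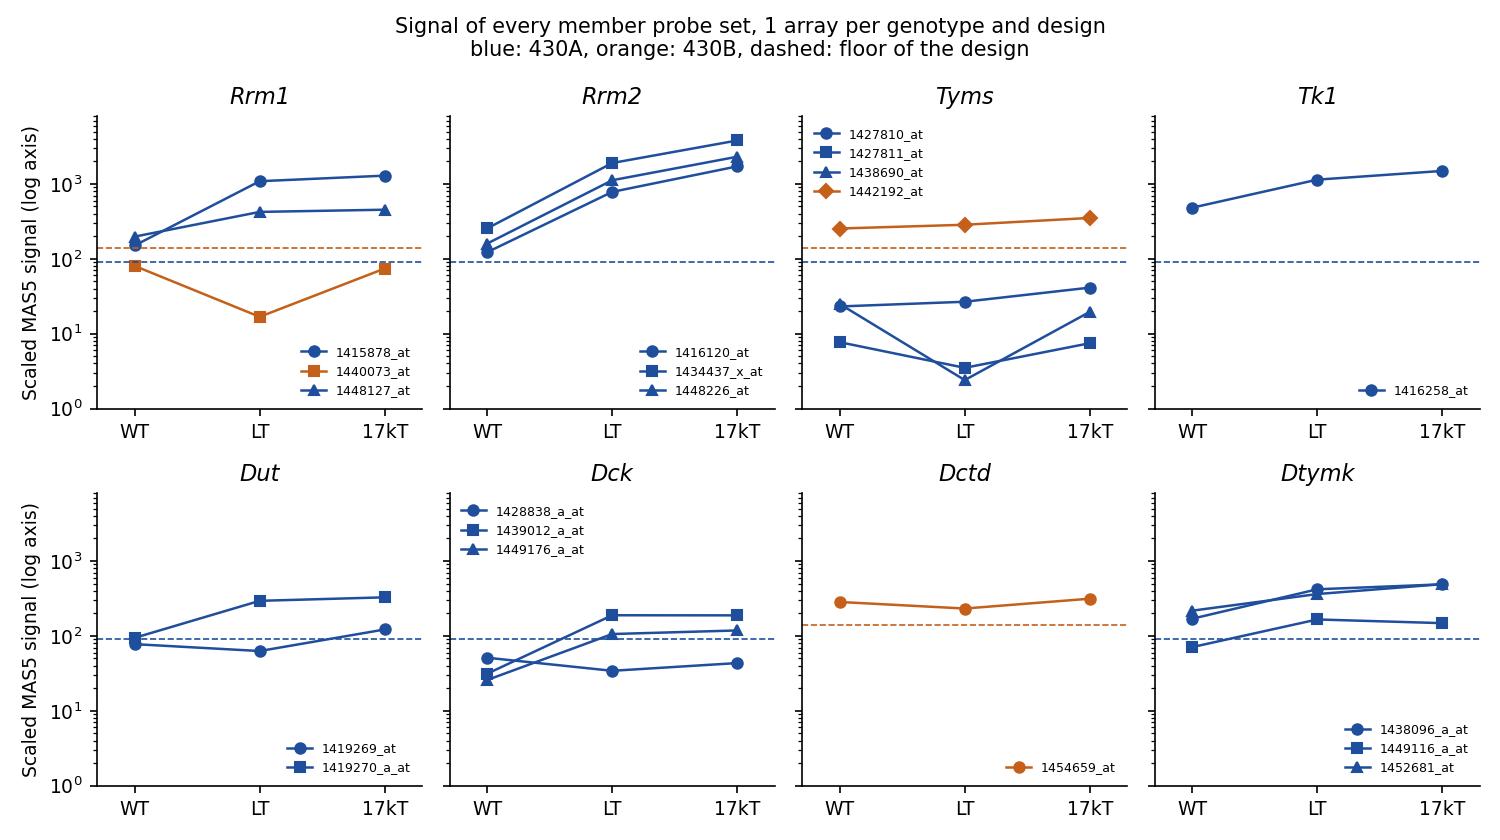
Scaled MAS5 signal (log axis) of all 20 probe sets in WT, LT and 17kT liver, 1 array per point, with a line joining the points of a probe set, 430A in blue and 430B in orange, and the floor of each design dashed. All 3 Rrm2 probe sets climb from WT through LT to 17kT, and 3 of the 4 Tyms probe sets lie below the floor, where values have no order.

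Promoters of the reductase subunits are shown first, since these genes moved most against WT, with Tk1 as a called gene whose stretch lacks the box they hold. Each run is the 150 bases before the RefSeq start on GRCm38.p6, 5′ to 3′ on the gene's strand, with the CCAAT box, a common promoter element, in capitals. Rrm1 lies on the plus strand at chr7:102441545-102441694, Rrm2 on the plus strand at chr12:24708104-24708253, and Tk1 on the minus strand at chr11:117826015-117826164.
Rrm1: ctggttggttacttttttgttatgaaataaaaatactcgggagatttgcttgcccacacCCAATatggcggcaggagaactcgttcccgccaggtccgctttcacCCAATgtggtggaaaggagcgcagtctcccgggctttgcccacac
Rrm2: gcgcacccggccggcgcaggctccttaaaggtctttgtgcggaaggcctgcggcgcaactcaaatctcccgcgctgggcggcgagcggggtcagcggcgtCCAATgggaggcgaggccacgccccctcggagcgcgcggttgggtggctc
Tk1: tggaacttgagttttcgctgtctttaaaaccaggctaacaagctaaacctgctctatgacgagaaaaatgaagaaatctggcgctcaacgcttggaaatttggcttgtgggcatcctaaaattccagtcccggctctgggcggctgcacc
The Rrm1 stretch holds CCAAT 2 times, first bases 91 and 45 before the start, and the Rrm2 stretch 1 time, 50 before it. Tk1 has none here.

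All 8 genes had windows in the RefSeq table, 10 in all, each of 250 bases before and 50 after a start. On either strand, CCAAT was found in 5 of the 10 windows, and in 37.4% of 32851 windows of all genes. The 5 windows belong to 4 of the 8 genes (Rrm1, Rrm2, Dctd and Dtymk). Of these 4, Dctd was not called in any comparison, and its windows with the box overlap and share it. An 8-base E2F motif was searched as TTTCCCGC, TTTCGCGC, TTTGCCGC and TTTGGCGC, and 0 of the 10 windows held any of them, as against 2.26% of all windows. TTTGAA, the core of an element of mitotic promoters, was found in the Dck window and in 17.9% of all. No motif contains another, and a match or its absence says nothing here about binding.

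Rrm2 encodes the subunit with the radical that starts the reduction, and its 3 probe sets gave like ratios. On 1448226_at the signal was 159.8 in WT, 1119 in LT and 2308 in 17kT. Probe set 1416120_at read 122, 783 and 1715 in the same order. On 1434437_x_at, of a kind that can bind several genes, the signals were 255, 1902 and 3804. So WT was lowest and 17kT highest on every one, with WT above the floor throughout.

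Rrm2 was 7.01-fold higher in LT than in WT on 1448226_at, 6.39-fold on 1416120_at and 7.46-fold on 1434437_x_at. In 17kT over WT the folds were 14.4, 14.0 and 14.9, and the first, which stands for the gene, was above that of 99.9% of measured genes. Between the transgenic livers, 17kT over LT, they were 2.06 and 2.19 on the first pair, and 1434437_x_at fell just short of the rule. The log2 ratios of 1.04 and 1.13 exceed both spreads given above, neither of which is a spread between animals. The spread between designs also leaves out a constant shift between them. In 17kT over LT the shared probe sets read higher on 430A, where Rrm2 was measured, by a median log2 ratio of 0.36. With arrays scaled to a common median, 1448226_at and 1416120_at fell below the rule in 17kT over LT, at log2 ratios of 0.88 and 0.97, and under the 6 scalings 1448226_at ranged from 0.88 to 1.28.

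Rrm1, the catalytic and regulatory large subunit, differed by how it was probed. On 1415878_at it read 151 in WT, 1087 in LT and 1289.9 in 17kT. On 1448127_at the signals were 198, 423 and 453. A 430B probe set, 1440073_at, lay at or below its floor on all 3 arrays. WT was the lowest on both measured probe sets, and LT and 17kT lay close together.

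The Rrm1 fold in LT over WT was 7.21 on 1415878_at and 2.14 on 1448127_at. For 17kT it was 8.55 and 2.29. In log2 terms the LT values were 2.85 and 1.10, further apart than the SD between probe sets of a gene. In 17kT over LT the log2 ratios were 0.25 and 0.10, no larger than the technical spread. With arrays scaled to the probe sets shared by the designs, 1448127_at was no longer called, with log2 ratios of 0.84 in LT over WT and 0.99 in 17kT over WT.

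Tk1, the cytosolic thymidine kinase of cycling cells, had 1 probe set. Its signal was 481 in WT, 1140.3 in LT and 1492 in 17kT. Both transgenic arrays were above WT, by 2.37-fold in LT and 3.10-fold in 17kT, and the log2 ratio of 17kT over LT was 0.39. Tk1 in LT over WT dropped to a log2 ratio of 0.99, under the rule, with scaling to the shared probe sets.

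Dut removes deoxyuridine triphosphate and yields the substrate of thymidylate synthase. On 1419270_a_at the signal was 94.3 in WT, just above the floor, 294 in LT and 327 in 17kT. It was 3.12-fold higher in LT and 3.47-fold higher in 17kT, and both transgenic arrays lay well above WT. The other probe set, 1419269_at, was below the floor in WT and LT and read 122 in 17kT, a log2 ratio of at least 0.43 over either. It gave no measured ratio of LT over WT.

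Dck, which phosphorylates deoxycytidine and other deoxynucleosides, was below the floor in WT on all 3 of its probe sets. On 1439012_a_at it read 31.3 in WT, 189 in LT and 188 in 17kT, at least 2.09-fold and at least 2.08-fold higher than WT. On 1449176_a_at the signals were 25.8, 106 and 118, and the log2 ratios against the floor were 0.23 in LT and 0.39 in 17kT. The remaining probe set, 1428838_a_at, stayed below the floor on every array. The Dck call turns on settings, since its log2 ratio in LT over WT was 0.95 with arrays scaled to the shared probe sets and 2.59 with the floor at the 25th percentile. In 17kT over WT these were 0.99 and 2.59, and with the floor at the 75th percentile Dck was not measured.

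Dtymk, thymidylate kinase, was probed by 3 sets on 430A. On 1438096_a_at it read 169.6 in WT, 419 in LT and 488 in 17kT, 2.47-fold and 2.88-fold higher than WT. On 1452681_at the signals were 217, 362 and 491, a log2 ratio of 0.74 in LT and a 2.26-fold rise in 17kT. The dimmest set, 1449116_a_at, was below the floor in WT at 70.9 and read 166 in LT and 148 in 17kT, with log2 ratios of at least 0.88 and at least 0.71. All 3 put both transgenic arrays above WT, but 1 of 3 passed the rule in LT and 2 of 3 in 17kT.

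Tyms makes thymidylate and is the target of fluoropyrimidine drugs. Its measured probe set, 1442192_at on 430B, read 254 in WT, 285 in LT and 351 in 17kT, log2 ratios of 0.17 and 0.47 that were not called. The 3 Tyms probe sets of 430A were below the floor on every array, the highest value being 41.2. Among the scalings, the Tyms log2 ratio in LT over WT ran from -0.31 to 0.47, so its sign is not settled. A further 430A probe set, 1424991_s_at, is annotated to Tyms and the pseudogene Tyms-ps together, and it was given to neither and entered no count. It read 243 in WT, 694 in LT and 922 in 17kT.

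Dctd, deoxycytidylate deaminase, was measured by 1 probe set of 430B. The signal was 284 in WT, 232 in LT and 314 in 17kT, with LT lowest. Its log2 ratio was -0.29 in LT over WT and 0.15 in 17kT over WT, and neither was called. Under the 6 scalings the LT value ran from -0.76 to 0.01. Tyms and Dctd, the genes without a call, were also the genes valued on 430B, and the 6 called genes were valued on 430A. For probe sets shared by the designs, the log2 ratio on 430A minus that on 430B had a median of -0.25 for LT over WT and 0.19 for 17kT over WT. For 17kT over LT it was 0.36.

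**Figure D2:**
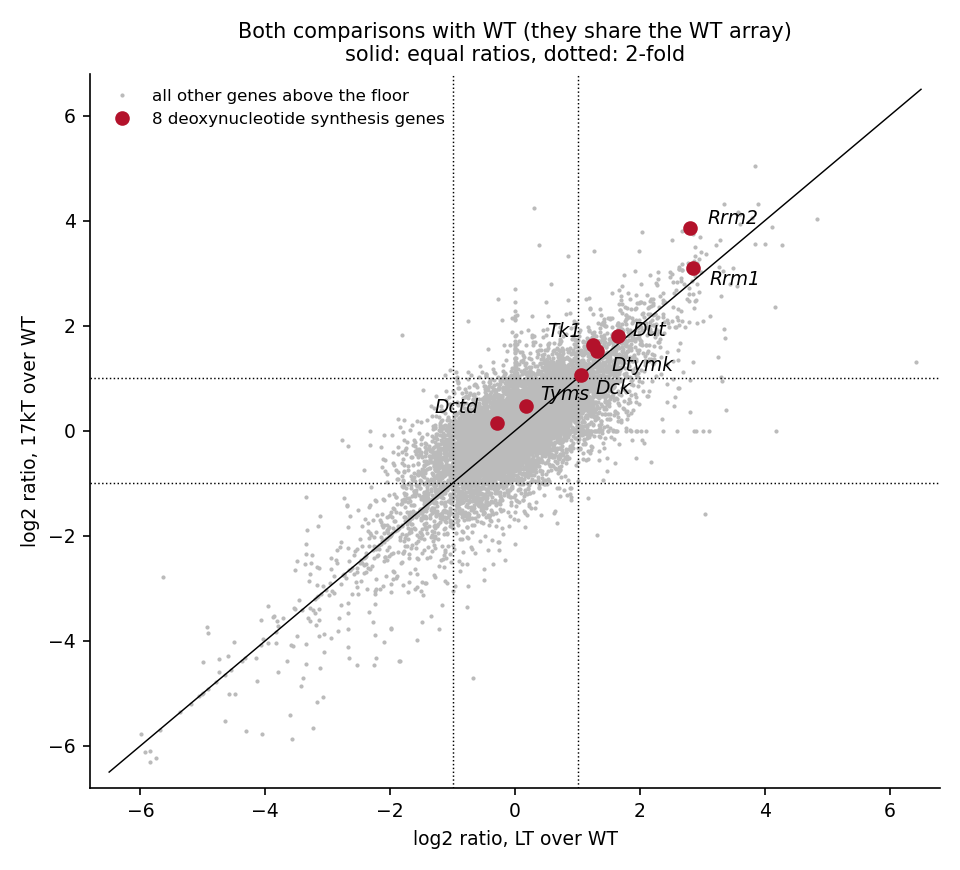
Log2 ratio of LT over WT (horizontal) against 17kT over WT (vertical), 1 grey point per gene above the floor and the 8 deoxynucleotide synthesis genes in red. Both axes share the WT arrays, which alone draws points to the diagonal. Rrm1 and Rrm2 lie near 2.8 in LT, and Rrm2 stands above the line of equal ratios at 3.85 in 17kT.

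**Figure D3:**
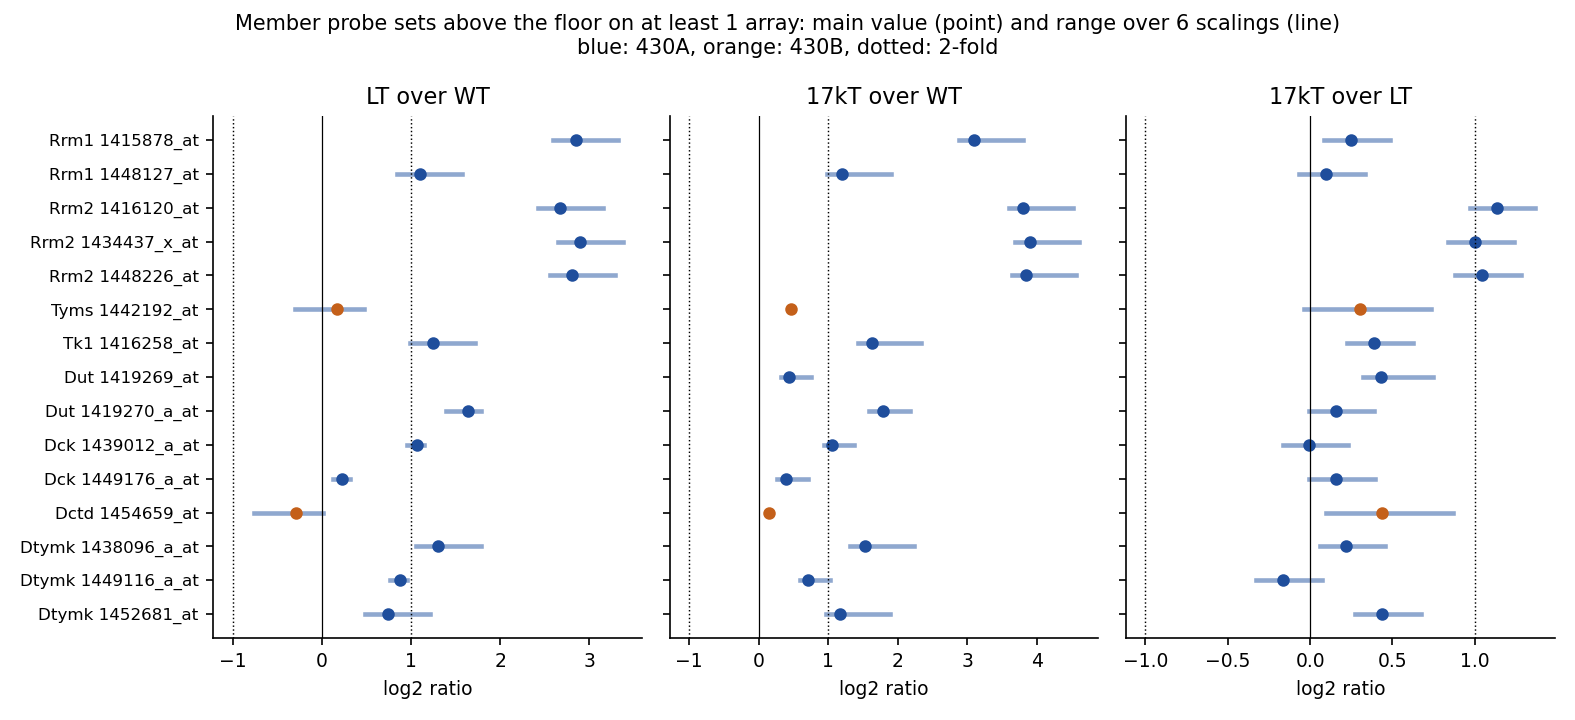
Log2 ratios of the member probe sets in the 3 comparisons, with the reported value as a point (430A blue, 430B orange) and its range over 6 scalings as a line. A probe set below the floor on both arrays of a comparison has no point. The Rrm2 lines stay right of 2-fold in both comparisons with WT and cross it in 17kT over LT.

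Genes with the most similar pattern were sought among genes above the floor on all 3 arrays of the design, by the distance between the pairs of log2 ratios (LT over WT and 17kT over WT). This likeness rests on 3 arrays. Nearest to Rrm2 were Cdca3 at a distance of 0.12, the mitotic kinase Pbk at 0.15 and the replicative helicase gene Mcm2 at 0.22. Nearest to Rrm1 were the cell cycle kinase Cdk1 at 0.08, the iron hormone gene Hamp at 0.09 and the mitotic activator Cdc20 at 0.11. For Tk1 they were Srek1 (0.02), Ehd4 (0.03) and Emp2 (0.08), and for Tyms on 430B, Rab3il1 (0.003), Rab3gap1 (0.01) and Lexis1 (0.02).

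Other genes of nucleotide metabolism were more often called lower than higher against WT, except that with scaling to the hybridisation controls LT and 17kT each had 19 higher and 7 lower. Of 96 other entries listed in 8 groups, some of them alternative names of the same gene, 79 were matched on the arrays. In LT over WT, 4 of 75 measured were higher and 11 lower, with a median log2 ratio of 0.12. The count in 17kT over WT was 5 of 72 higher and 13 lower, with a median of -0.09. In 17kT over LT, 2 of 73 were higher and 3 lower (median -0.08). These shares stand beside the backgrounds of 11.1% higher and 9.01% lower, 9.97% and 8.64%, and 4.23% and 4.47% given above.

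Among relatives of ribonucleotide reductase, Rrm2b, the small subunit that p53 can induce, stayed near the floor. Its 430A probe set read 129 in WT and was below the floor in LT and 17kT (log2 ratios of -0.52 or lower). On 430B, 1437476_at read 124, 156 and 141 around a floor of 140.5, and the other 2 probe sets were below it. None of the 4 probe sets was called. Glrx, a glutaredoxin that can supply electrons to the reductase, read 398 in WT, 162 in LT and 113 in 17kT, 2.46-fold and 3.51-fold lower.

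Among genes that make the ribonucleotide precursors, Ctps, a CTP synthase gene, was below the floor in WT and read 401 in LT and 460.5 in 17kT, at least 4.43-fold and at least 5.09-fold higher. Its relative Ctps2 was 2.02-fold higher in LT and 3.02-fold in 17kT, but a second probe set went slightly the other way, with log2 ratios of -0.43 and -0.03. Of 14 purine synthesis genes, 2 were higher in LT and 0 lower (median 0.52), a share near the 11.1% of all measured genes called higher. Ppat, the first committed enzyme, read 119 in WT and 363 in LT (3.06-fold), but its second probe set had a log2 ratio of 0.44 and was not called. Pfas read 351 and 989 (2.81-fold). In 17kT, Prps2 was the purine gene called higher (2.53-fold), with a second probe set at -0.09 on the log2 scale.

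Folate enzymes that feed thymidylate synthesis went down or were not called. Of 8 measured, 2 were lower in LT and 3 in 17kT, and 0 higher. Shmt2, the mitochondrial serine hydroxymethyltransferase, read 791 in WT, 257 in LT and 357 in 17kT, and 1 of its other 2 probe sets was not called, at a log2 ratio of -0.81 in both. Fpgs, which traps folates in cells, was 2.78-fold lower in LT and 2.38-fold lower in 17kT, and Shmt1 2.36-fold lower in 17kT, where 2 of its 3 other probe sets were also called.

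Among the related groups, the breakdown genes held the largest falls from WT. Of 19 measured in LT over WT, 6 were lower and 0 higher, and in 17kT over WT 6 of 18 were lower and 1 higher. Dpys, dihydropyrimidinase, read 2176 in WT, 339.6 in LT and 126 in 17kT, 6.41-fold and 17.3-fold lower. The uridine phosphorylase gene Upp2 read 834 in WT and was below the floor in both transgenic livers, at least 9.23-fold lower in each. Upb1, a further enzyme of pyrimidine breakdown, was 3.14-fold lower in LT and 3.41-fold in 17kT, and Dpyd, which starts that pathway, read 2306, 998 and 1001. Uox, urate oxidase, was 4.67-fold and 7.04-fold lower. Ada, adenosine deaminase, was below the floor in WT and at least 2.77-fold higher in 17kT. Samhd1, which degrades deoxynucleotide triphosphates, read 246, 274 and 287 on its brightest probe set, and none of its 5 probe sets was called.

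Salvage outside the 8 genes was mostly not called. Tk2, the mitochondrial thymidine kinase, read 145 in WT and was below the floor in LT and 17kT, with log2 ratios of -0.68 or lower. Dguok, its partner for purine deoxynucleosides, read 169, 144 and 119, with log2 ratios of -0.23 and -0.51. Among nucleotide kinases, Ak1 was 4.43-fold higher in 17kT than in WT and at least 4.60-fold higher than in LT, while Ak4 was 3.50-fold and 3.26-fold lower.

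**Figure D4:**
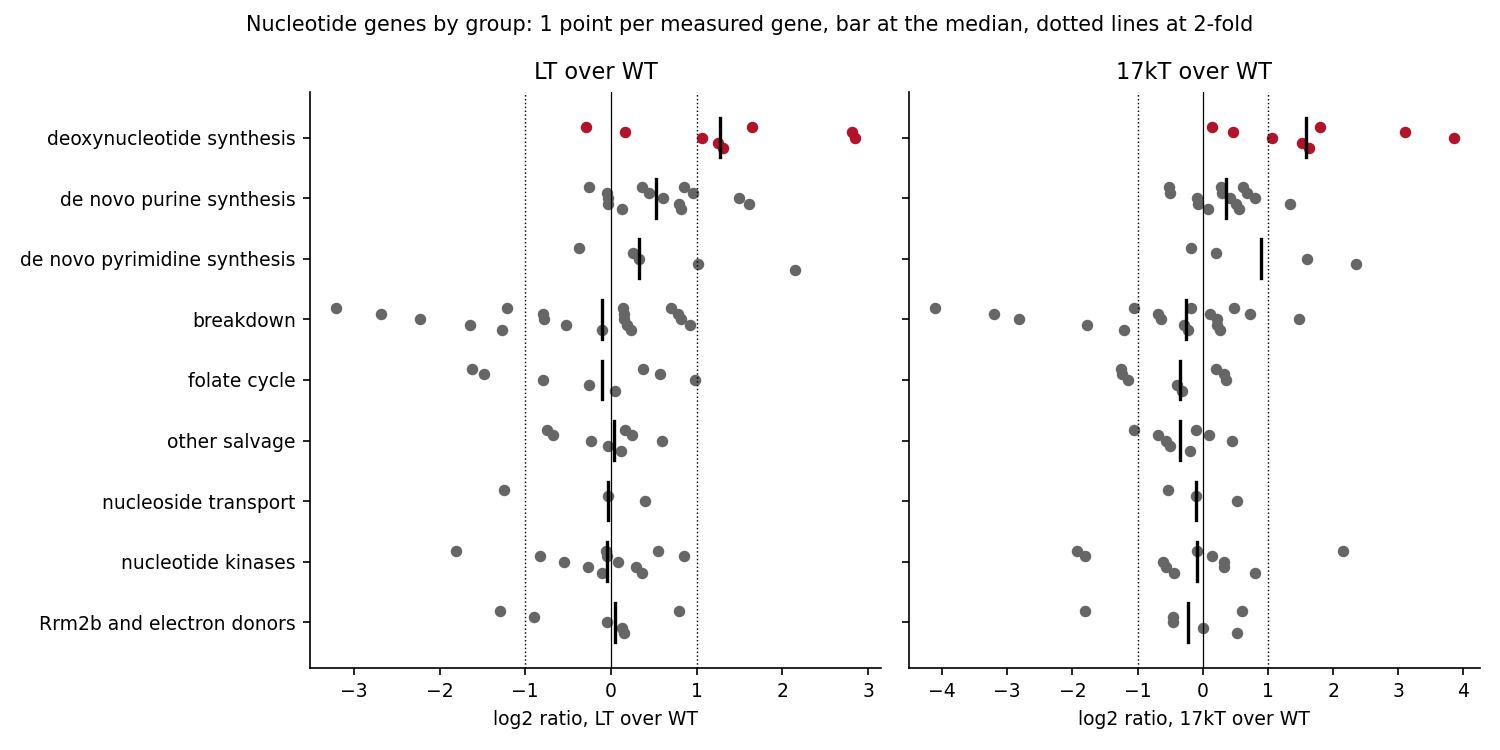
Log2 ratios of LT over WT (left) and 17kT over WT (right), 1 point per measured gene, for the 8 deoxynucleotide synthesis genes in red and the groups of related nucleotide genes in grey, with a bar at each median. The red medians lie at 1.28 and 1.58, and the breakdown group holds the lowest points of both panels.

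Markers of some other cells differed between genotypes too, here as summed signals on 430A in WT, LT and 17kT. Of 4 measured neutrophil markers 2 were higher in LT (Lcn2 and S100a8), and the 5 on the design summed to 1048, 2460.2 and 1909. Lcn2 alone made up most of each sum, at 749, 1858 and 1542. S100a8 and S100a9 were below the floor in WT and 17kT. Of 6 bile duct and progenitor genes, Cd24a and Prom1 were higher in LT, with sums of 294, 1264 and 311, and Epcam, Krt19, Krt7 and Sox9 were never above the floor. The 5 erythroid markers summed to 3182, 1308 and 808, with Hba-a1 and Epb42 never above the floor. Most of each sum came from Alas2 (1742, 124 and 141) and Tfrc (1267, 1092 and 510). For 5 B cell markers the sums were 693, 441 and 433, and Ighm alone, at 455, 181 and 154, was called lower than WT in both. Sums were 219.9, 222 and 181 for 6 T and NK cell markers. They were 13960.0, 11902 and 14887 for 10 Kupffer cell markers, 3864, 2663 and 3409 for 8 endothelial markers, and 5227, 3636 and 5363 for 7 stellate cell markers. Cd2, Cd3d, Cd3e, Cd3g, Cd4 and Nkg7 were never above the floor, so the T and NK cell sums have no order. Cd8a, the T cell marker on 430B, read 406, 276 and 376, above the floor on every array. Also on 430B, the stellate cell marker Lrat was 2.18-fold lower in LT than in WT. The Kupffer cell marker Timd4 was 2.15-fold lower in 17kT than in WT. The part of these cells in the results was not tested.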

How the data were processed

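Liver RNA of 3 genotypes was measured on 1 array per genotype for each of 2 Affymetrix designs. The deposited values are signal intensities per probe set on a linear scale, made by the authors with MAS5, per the submitters' processing notes. No version of it is stated there. Array settings were read from the file headers. Of 22690 probe sets on 430A and 22575 on 430B, 20393 and 14674 had 1 gene symbol, and those with several or none were not named.

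Signals were scaled within a design to a common 2% trimmed mean, floored at the median and put on the log2 scale with Python 3.11.15, numpy 2.4.6 and pandas 2.3.3. A gene was valued by its brightest probe set relative to the floor, with _x_at sets used where there was no other. Brightness was the mean signal over the 3 arrays of a design, so the transgenic arrays weighed in the choice. A ratio counted as measured when at least 1 of the 2 arrays was above the floor. With 1 array a group, the number of arrays limits precision. The code was tested on simulated arrays.

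The members and the lists of related and marker genes were chosen with earlier results of these data known. Named genes were all member probe sets, Rrm2b, Samhd1, Tk2 and Dguok, called related genes, hepatocyte markers and, for Rrm1, Rrm2, Tyms and Tk1, the 3 genes of nearest pattern. Cd24a, Prom1, Lcn2, S100a8, S100a9, Alas2, Tfrc, Ighm, Cd8a, Lrat, Timd4 and the marker genes below the floor were named after their values were seen. Promoters came from a RefSeq table (GRCm38.p6). Alternatives were 5 scalings, 3 floors, a 3-fold rule, a mean over probe sets and leaving out _x_at and _s_at sets.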

Additional observations from a re-analysis of the deposited data

Results flagged for a closer look

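A probe set of 430A annotated to both Tyms and the pseudogene Tyms-ps, 1424991_s_at, entered no comparison because it names no single gene, yet it was brighter in both transgenic livers than in WT. It was 2.85-fold higher in LT than in WT and 3.79-fold higher in 17kT. The probe set assigned to Tyms alone on 430B had log2 ratios of 0.17 and 0.47.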

How the results depend on the processing

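No paired analysis was possible because each genotype had 1 array per design, so no array could be left out either. No called member ratio changed its sign under any alternative, but a log2 ratio of at least 1 made such a change unlikely beforehand. With a floor at the 75th percentile, Dck was not measured against WT, and Dut in LT over WT fell to 0.08. Of 96 recomputed counts, 73 stayed within 1.5 times the reported one.

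In LT over WT, the 6 member genes called became 3 when scaled to the probe sets on both designs (Rrm1, Rrm2 and Dut; Dtymk was then valued by another probe set, and its reported one kept the call), 3 with a floor at the 75th percentile (Rrm1, Rrm2 and Tk1) and 3 at 3-fold. With the mean over probe sets, 4 member genes were called in LT over WT and 5 in 17kT over WT. The 9 member probe sets called in LT over WT became 5 with a floor at the 75th percentile and 5 at 3-fold. In 17kT over WT, with that floor, 6 genes became 3 and 10 probe sets 5, and at 3-fold 6 probe sets were called. In 17kT over LT, the 1 gene called, Rrm2, became 0 with scaling to the median, with the floor as a pseudocount and at 3-fold, and the 2 probe sets became 0, 1 and 0. Related nucleotide genes called in LT over WT, 15, became 26 when scaled to the hybridisation controls and 8 at 3-fold. The 18 called in 17kT over WT became 11 with a floor at the 75th percentile and 10 at 3-fold. In 17kT over LT, 5 became 10 with scaling to the median, 11 with the controls, 0 with the higher floor, 3 with the pseudocount and 2 at 3-fold.

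The median log2 ratio of all genes in LT over WT, 0.02, moved to -0.27 when scaled to probe sets on both designs and to 0.40 with the controls, and the shares of genes higher and lower, 11.1% and 9.01%, to 6.18% and 16.7% and to 21.8% and 5.03%. In 17kT over WT the controls gave 0.40, and 23.1% and 5.89%. In 17kT over LT, scaling to the median gave -0.14 and the probe sets on both designs 0.18. Signals near the floor, as for Dck and Dut in WT, limit what a ratio can show.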
